A study of Mus musculus with 8 samples.

Results

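The genes described here encode the subunits of the NMDA receptor: Grin1, Grin2a, Grin2b, Grin2c, Grin2d, Grin3a and Grin3b. They were taken by symbol, and all 7 were found among the 55341 gene symbols of the deposited counts. The libraries hold nuclear RNA of GABAergic neurons, the inhibitory neurons of the cortex, from juvenile mice, with 1 library per mouse. The nuclei were labelled by a fluorescent reporter that Cre recombinase switches on in GABAergic neurons, and were collected with a cell sorter; the labels name no Cre driver, strain, sex or exact age. All mice were hypothyroid because their mothers had received propylthiouracil (PTU), a blocker of thyroid hormone synthesis, during gestation. The PTU group (mice 9 to 12, n = 4) had no further treatment named in the labels, and the PTU+TH group (mice 13 to 16, n = 4) had an intraperitoneal injection of thyroid hormone (TH) 24 h before brain collection. No euthyroid mice were analysed here, so a difference is between 2 hypothyroid groups, with and without a day of TH.

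NMDA receptors are glutamate-gated cation channels that open when glutamate and a co-agonist, glycine or D-serine, bind and depolarisation lifts a block by magnesium. Each receptor holds the obligatory GluN1 subunit (Grin1), usually with GluN2 subunits (Grin2a to Grin2d), which bind glutamate and set the speed of the current. GluN3 subunits (Grin3a and Grin3b) bind glycine and lower calcium entry. In the forebrain Grin2b and Grin2d are prominent early and Grin2a rises after birth, a change known as the GluN2B to GluN2A switch. Grin3a is likewise highest in early postnatal life.

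The subunit classes differ at the pore, where a residue of the channel's inner loop governs calcium entry and magnesium block. The coding bases around that residue are shown because they separate the GluN3 genes from the others. For the 6 genes shown, they were read from the GENCODE M21 transcript with the longest coding sequence, 5′ to 3′ on the coding strand, with 7 codons on each side and the residue's codon in capitals.
Grin1: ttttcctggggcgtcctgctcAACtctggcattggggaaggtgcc
Grin2a: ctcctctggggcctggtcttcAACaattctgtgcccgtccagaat
Grin2c: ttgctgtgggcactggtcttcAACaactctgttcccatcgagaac
Grin2d: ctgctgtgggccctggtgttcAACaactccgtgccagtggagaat
Grin3a: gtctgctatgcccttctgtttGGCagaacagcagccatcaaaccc
Grin3b: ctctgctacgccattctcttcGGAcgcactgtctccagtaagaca
The codon encodes asparagine in Grin1, Grin2a, Grin2c and Grin2d, and glycine in the 2 Grin3 genes. Grin2a had 35 of the 45 bases in common with Grin2c and 36 with Grin2d, and Grin3a had 28 in common with Grin3b. Grin1 shared 18 with Grin2a and 13 with Grin3b. In build GRCm38 the stretch of Grin2a is chr16:9653540-9653584 (minus strand, exon 8 of 12). The others, also on the minus strand except Grin3b, are chr2:25297292-25297409 for Grin1 (exons 14 to 15 of 21, with an intron between), chr11:115253842-115253886 for Grin2c (exon 9 of 13), chr7:45854372-45854416 for Grin2d (exon 8 of 12), chr4:49770563-49770607 for Grin3a and chr10:79974525-79974569 for Grin3b (exon 3 of 9 in both).

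The genes themselves differ widely in size. Grin2a spans 427.7 kb (chromosome 16, 9567898 to 9995560, minus strand) and shares no base with another annotated gene. Grin2b spans 460.3 kb (chromosome 6, 135713233 to 136173511, minus strand) and Grin3a 184.1 kb (chromosome 4, 49661611 to 49845744, minus strand), with 95.4% and 97.9% of the body free of other genes. The other 4 are compact, from 6.5 kb for Grin3b (chromosome 10, 79970715 to 79977190, plus strand) to 46.5 kb for Grin2d (chromosome 7, 45831883 to 45878378, minus strand). Grin1 (chromosome 2, 25291181 to 25319187, minus strand) spans 28.0 kb and Grin2c (chromosome 11, 115249169 to 115267243, minus strand) 18.1 kb. Grin1, Grin3b and Grin2d are the most overlapped, with 72.5%, 65.4% and 80.7% of the body free. The antisense gene Grin1os, which lies across part of Grin1, was listed at 0 in all 8 libraries. The sources used here do not give the strand setting, and reads from an overlapped part cannot be given to either gene.

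Library totals lay between 21762810 and 29084071 counts. The TH-induced gene Hr, a check of the treatment, stood at 1.80 ± 0.53 CPM (counts-per-million, scaled by TMM, the default of edgeR) in PTU and 26.6 ± 1.62 in PTU+TH (SD, n = 4 each). The 3 GABAergic markers Gad1, Gad2 and Slc32a1 summed to 848 to 988 CPM in PTU and to 853 to 934 in PTU+TH, with 0 of 3 called. Markers of excitatory neurons, which also express NMDA receptors, summed to 37.1 to 106.6 CPM over 7 genes in PTU and to 45.7 to 120.3 in PTU+TH, with 0 of 7 called. The share of counts in genes of 100 kb or more varied between libraries: 37.4%, 40.5%, 48.9% and 46.6% in PTU mice 9 to 12, and 42.3%, 42.5%, 45.5% and 48.5% in PTU+TH mice 13 to 16. Y-linked genes had 0 counts in PTU+TH mice 15 and 16 and at least 7960 in each other library. The groups were thus not balanced for Y-linked RNA, a sign of sex, which the labels do not name.

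Over all 8 libraries, NMDA receptor RNA in these nuclei was carried by Grin1, Grin3a, Grin2b, Grin2d and Grin2a, with Grin2c and Grin3b near the floor. Levels of different genes are compared per kilobase of gene body, because nuclear RNA holds unspliced transcript and the counts behaved as counts over whole gene bodies: all 764 protein-coding genes that lie inside an intron of another gene were at 0. On that scale Grin1 was highest at 9.13 ± 1.28 CPM per kb (SD, n = 8), followed by Grin3a at 4.06 ± 0.92 and Grin2b at 2.14 ± 0.43. Grin2d, at 1.62 ± 0.12, and Grin2a, at 1.30 ± 0.30, came next. Grin2c and Grin3b were at 0.20 ± 0.07 and 0.14 ± 0.06 CPM per kb. The ranges of Grin1, Grin3a and Grin2b did not overlap between neighbours in this order, and neither did those of Grin2a and Grin2c. Those of Grin2b and Grin2d, of Grin2d and Grin2a, and of Grin2c and Grin3b overlapped, and each of these pairs kept the order in 7 of 8 libraries.

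The order depended on the length used. Per kilobase of merged exons Grin3a was highest at 60.8 CPM per kb, followed by Grin2b at 39.6, Grin2a at 31.01 and Grin1 at 26.4. The order of the last pair differed between groups: in PTU Grin1 was at 26.4 and Grin2a at 25.5, and in PTU+TH at 26.3 and 36.5. Grin2d then stood at 11.3, and Grin2c and Grin3b were again lowest, at 0.73 and 0.27. Thus the mean of Grin3a lay above that of Grin2b, and Grin2b above Grin2a, on both scales, whereas the places of Grin1 and Grin2d differed. Per kilobase of the gene body free of other genes, Grin3b (mean 0.210) and Grin2c (0.204) had no stable order: Grin3b was higher in 4 of 8 libraries, and mouse 14, at 0.422, was far above the rest. On that scale Grin2d, at 1.82 to 2.21, lay wholly above Grin2a, at 0.75 to 1.68. Grin2b ranged from 1.54 to 2.88 and was below Grin2d in mice 9, 10, 13 and 14, so these genes had no stable order either.

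**Figure D1:**
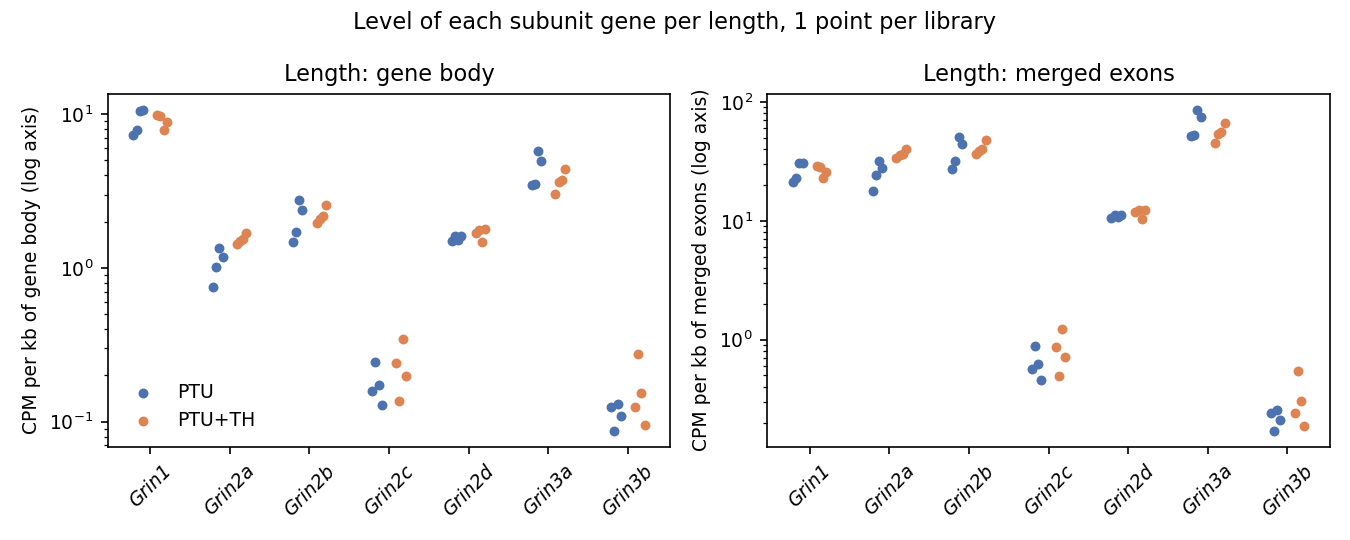
CPM per kilobase of gene body (left) and of merged exons (right) on log axes for the 7 subunit genes, with 1 point per library, PTU in blue and PTU+TH in orange. Grin2c and Grin3b lie lowest on both scales, at means of 0.20 and 0.14 CPM per kb of gene body.

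The comparison of PTU+TH with PTU asks whether a day of TH is accompanied by a more mature subunit pattern. Grin2a, the mature GluN2 subunit, was the member whose libraries separated by group: it was 1.43-fold higher in PTU+TH, while Grin2b, its juvenile counterpart, stood at nearly the same mean in both groups. Grin1, Grin2d and Grin3a overlapped between groups, as did the scarce Grin2c and Grin3b. In the edgeR quasi-likelihood test with Benjamini-Hochberg adjustment over 17355 genes, 0 of the 7 members were called at an adjusted p under 0.05, against 2.12% of all genes tested (1.49% higher and 0.634% lower). Before adjustment 1 member, Grin2a, had an edgeR p under 0.05, as did 12.8% of all genes. Without overlap between groups there was likewise 1 of 7, against 8.71% of all genes. In bulk libraries such as these, fewer cells of a type and less RNA per cell cannot be told apart.

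Grin1, the obligatory subunit, stood at 206, 222, 296 and 299.95 CPM in PTU mice 9 to 12 and at 278, 273, 222 and 249 CPM in PTU+TH mice 13 to 16. Mice 11 and 12 were the highest of all and mouse 9 the lowest, so the PTU group enclosed the other. The log2 fold change of PTU+TH over PTU was -0.0023 (SE 0.14, 95% confidence interval -0.30 to 0.29, edgeR adjusted p = 0.998).

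Grin2a gives receptors with fast-decaying currents and marks the mature forebrain synapse. Its level was 322, 432, 575 and 502 CPM in PTU mice 9 to 12 and 607, 640, 655 and 717 CPM in PTU+TH mice 13 to 16. All 4 PTU+TH libraries lay above all 4 PTU libraries, as for 4.68% of all genes, with mouse 11 of PTU closest to mouse 13 of PTU+TH. The means were 457 ± 107.6 and 655 ± 46.1 CPM (SD, n = 4 each). In edgeR the log2 fold change was 0.52 (SE 0.17, 95% confidence interval 0.16 to 0.87). The edgeR adjusted p was 0.159, from an unadjusted edgeR p of 0.00791. Grin2a was thus not called, although its direction was the same under all 21 alternatives, with log2 fold changes of 0.39 to 0.65.

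Markers of interneuron classes, which can differ in subunit use, stood beside this as follows. Those of parvalbumin cells (4 genes) summed to 216 to 308 CPM in PTU and 277 to 366 in PTU+TH, with 1 called higher (Syt2). Most of that sum is Kcnc1, with means of 192.6 and 244 CPM, while Pvalb itself stood at 1.80 and 2.54 CPM and Tac1 had a log2 fold change of -0.08. Those of VIP cells (4 genes) summed to 200 to 281 CPM in PTU and 178 to 197 in PTU+TH, with 1 called lower (Htr3a). Somatostatin cell markers (4 genes) summed to 360 to 436 CPM in PTU and 317 to 389 in PTU+TH, and LAMP5 cell markers (4 genes) to 1130 to 1295 and 976 to 1135 CPM, with 0 called in either class. Most of the LAMP5 sum is Reln, which is also among the membrane partners in the pathway list, with means of 1021 and 875 CPM, and 3 of the 4 markers had a negative log2 fold change (Reln -0.22, Ndnf -0.75 and Lamp5 -0.09) and Npy a positive one (0.47). The shares of all genes called were 1.49% higher and 0.634% lower. The part of these classes in the Grin2a difference was not tested.

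The call of Grin2a depended on the analysis. The adjusted p was 0.0319 with DESeq2, 0.0461 with the excitatory marker level as a term in edgeR, 0.00141 with a surrogate variable from sva and 0.00184 with an offset for each library's trend with gene length. In the same order, these settings called 756, 582, 955 and 670 genes in all, against 368 in edgeR with no covariate. The adjusted p of Grin2a was 0.524 with the presence of Y-linked counts as a term and 0.636 in the 6 libraries that had such counts. Its log2 fold change there was 0.447 and 0.448, and calls over all genes numbered 129 and 58. Leaving out single libraries gave adjusted p-values of 0.0673, without PTU mouse 11, to 0.354, without PTU+TH mouse 16.

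Grin2b, the juvenile GluN2 subunit with slower currents, was at 675, 787, 1264 and 1098 CPM in PTU mice 9 to 12. In PTU+TH mice 13 to 16 it was at 897, 954, 1007 and 1179 CPM. The PTU+TH libraries lay inside the range of the PTU libraries. The log2 fold change was 0.08 (SE 0.20, 95% confidence interval -0.35 to 0.51, edgeR adjusted p = 0.941), and its sign changed without PTU mouse 9 (-0.051) and without PTU+TH mouse 16 (-0.0048). Without PTU mouse 11 it was 0.24.

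Grin3a, the juvenile GluN3 subunit, went the other way without passing the test. It was at 637, 642, 1058 and 916 CPM in PTU mice 9 to 12 and at 557, 662, 686 and 814 CPM in PTU+TH mice 13 to 16. Mice 11 and 12 were the highest and mouse 13 the lowest, with the rest mixed. The log2 fold change was -0.26 (SE 0.19, 95% confidence interval -0.66 to 0.15, edgeR adjusted p = 0.659). It stayed negative under all 21 alternatives, but its size varied. It was -0.11 without PTU mouse 11, -0.17 without PTU+TH mouse 13 and -0.42 with the presence of Y-linked counts as a term.

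**Figure D2:**
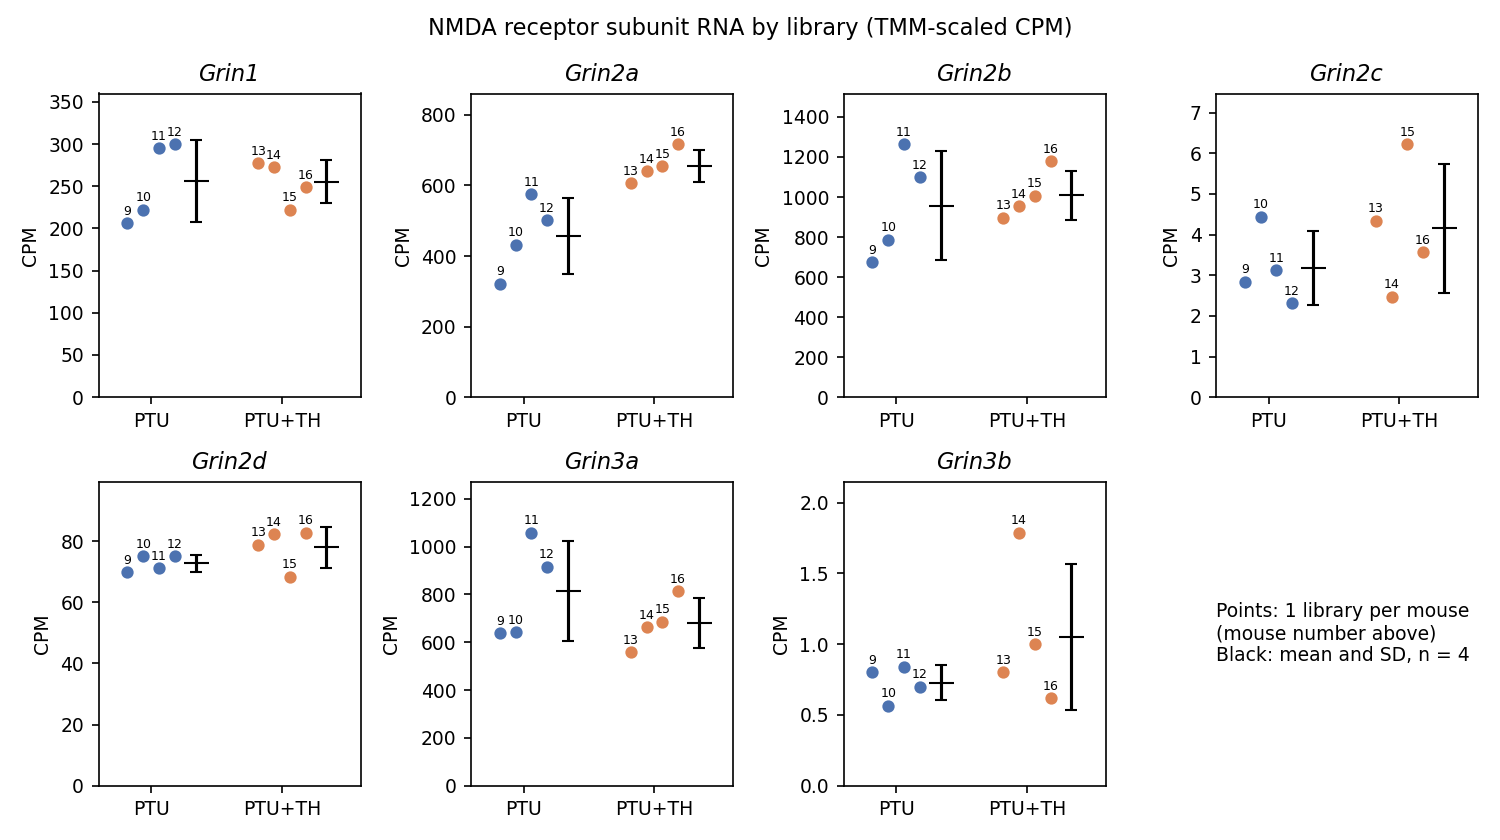
CPM of each subunit gene (vertical axes start at 0) by group, with 1 point per library labelled by mouse number and black bars for the mean and SD of 4 libraries. The Grin2a points of PTU+TH (607 to 717 CPM) lie above those of PTU (322 to 575 CPM), and the groups overlap for the other 6 genes.

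The spread of Grin2a, Grin2b and Grin3a within a group followed the same order of libraries. From low to high this order was mouse 9, 10, 12 and 11 in PTU and mouse 13, 14, 15 and 16 in PTU+TH, for all 3 genes. It was also the order of the share of counts in genes of 100 kb or more, a class that holds these 3 genes. Grin1 and Grin2d, which are short, had other orders. For Grin1 it was mouse 9, 10, 11 and 12 in PTU and mouse 15, 16, 14 and 13 in PTU+TH. In PTU this differed from the order above only in mice 11 and 12, which were close, at 296 and 299.95 CPM. The part of gene length in these orders was not tested.

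With the length trend of each library removed by an offset, an alternative chosen after these values were seen, the log2 fold change was 0.49 for Grin2a, 0.057 for Grin2b and -0.26 for Grin3a. The edgeR adjusted p-values were 0.00184, 0.835 and 0.25. Grin3a had an unadjusted edgeR p of 0.0294 in that fit and of 0.192 without the offset. Excitatory markers were highest in mice 9, 10, 13 and 15, at 106.6, 99.9, 94.7 and 120.3 CPM summed over 7 genes, and lowest in mouse 12, at 37.1. With their mean level as a term, the log2 fold change of Grin2a was 0.58.

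**Figure D3:**
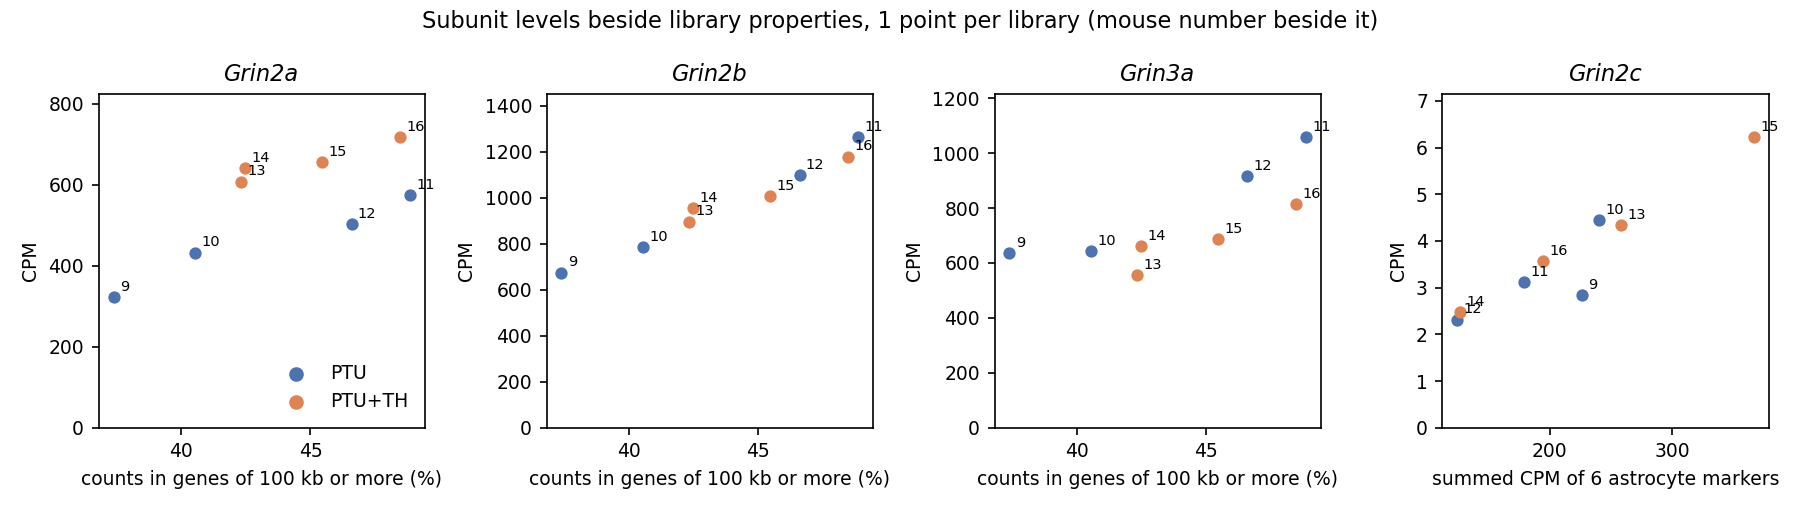
Level in CPM (vertical axes start at 0) of Grin2a, Grin2b and Grin3a against the percentage of counts in genes of 100 kb or more, and of Grin2c against the summed CPM of 6 astrocyte markers, with 1 point per library labelled by mouse number. Grin2b follows the long-gene share, from 675 CPM in mouse 9 to 1264 in mouse 11, and all Grin2a points of PTU+TH lie above those of PTU.

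The ratio of Grin2a to Grin2b counts compares the mature with the juvenile subunit within a library, where scaling cancels and the genes are of similar length. It was 0.476, 0.549, 0.454 and 0.457 in PTU mice 9 to 12 and 0.677, 0.671, 0.650 and 0.608 in PTU+TH mice 13 to 16. The groups did not overlap, and the closest libraries were PTU mouse 10 and PTU+TH mouse 16. The mean ratio was 0.484 ± 0.044 in PTU and 0.652 ± 0.031 in PTU+TH (SD, n = 4 each), a difference in log2 ratio of 0.43 or 1.35-fold. The exact permutation test, two-sided, gave p = 0.0286, the smallest that 70 arrangements allow, and 0.0857 after Benjamini-Hochberg adjustment over the 3 ratios tested. A single ratio that separates the groups fully cannot reach a lower adjusted value in this design, so the absence of a call carries no information.

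Leaving out each library in turn gave differences in log2 ratio of 0.40 to 0.49. The exact permutation p was then 0.0286, or 0.0571 (adjusted 0.171) without PTU+TH mouse 13, 14 or 15. In the 6 libraries with Y-linked counts it was 0.48 (exact permutation p = 0.0667, the smallest that 15 arrangements allow). As a share of GluN2 RNA per kilobase of gene body, Grin2a made up 19.4%, 22.1%, 23.2% and 22.1% in PTU mice 9 to 12. It made up 26.8%, 27.3%, 27.7% and 27.0% in PTU+TH mice 13 to 16. Grin2b made up 41.9% ± 5.08 and 38.8% ± 1.96, and Grin2d 32.7% ± 5.40 and 29.9% ± 2.75, in PTU and PTU+TH (SD, n = 4 each). The Grin2b and Grin2d shares of the groups overlapped. These shares depend on the length used. Per kilobase of body free of other genes, Grin2d had means of 1.94 CPM in PTU and 2.08 in PTU+TH. Per kilobase of whole body they were 1.57 and 1.68, while Grin2a was the same on both scales.

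**Figure D4:**
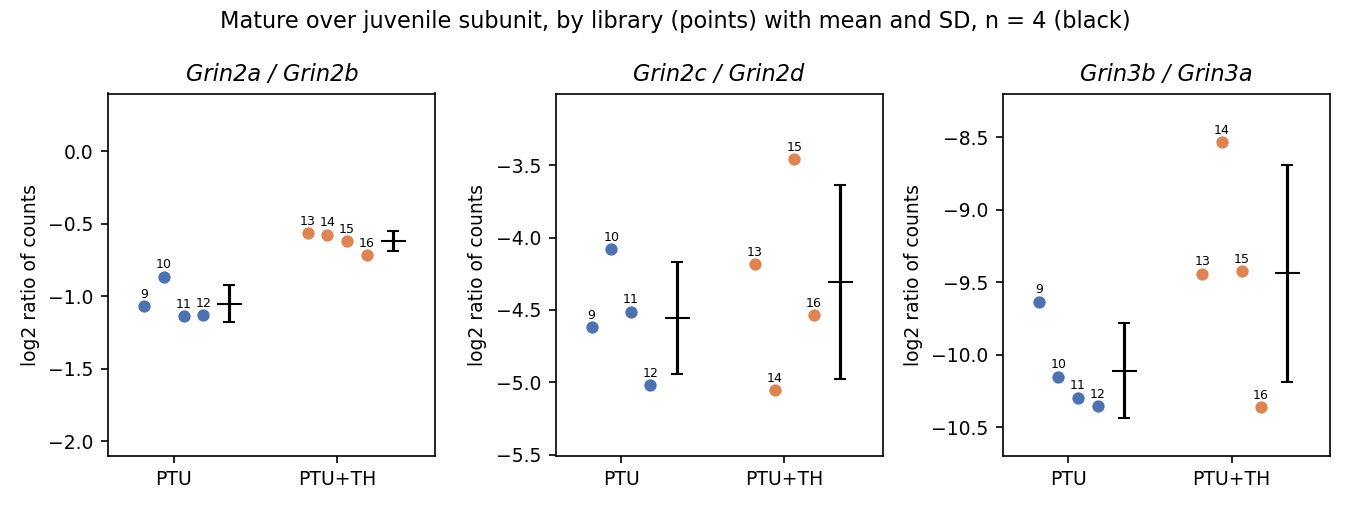
Log2 ratio of counts of Grin2a over Grin2b, Grin2c over Grin2d and Grin3b over Grin3a in each library (points, labelled by mouse number). Black shows the mean and SD of 4 libraries, and each vertical axis has the same span. For Grin2a over Grin2b the PTU+TH points lie above all PTU points, with a difference in means of 0.43, and for the other ratios the groups overlap.

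Grin2d, a GluN2 subunit with very slow currents that is known from forebrain interneurons, varied least over all 8 libraries relative to its mean. Within PTU+TH it did not: its mean was 78.1 CPM with an SD of 6.7, against 655 and 46.1 for Grin2a. Grin2d was at 69.8, 75.2, 71.1 and 75.2 CPM in PTU mice 9 to 12 and at 78.9, 82.2, 68.4 and 82.8 CPM in PTU+TH mice 13 to 16. Of the PTU+TH libraries, 3 lay above the PTU libraries and mouse 15 lay below them. The log2 fold change was 0.10 (SE 0.086, 95% confidence interval -0.08 to 0.29, edgeR adjusted p = 0.724), and 0.16 without mouse 15.

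Grin2c, a late GluN2 subunit known from cerebellar granule cells and from astrocytes, had only 53 to 137 counts per library. Its level was 2.84, 4.44, 3.12 and 2.32 CPM in PTU mice 9 to 12 and 4.34, 2.48, 6.22 and 3.57 CPM in PTU+TH mice 13 to 16. The groups overlapped, with mouse 15 highest and mouse 12 lowest. By edgeR the log2 fold change was 0.38 with an SE of 0.29 and an adjusted p of 0.685. It was 0.12 without PTU+TH mouse 15, 0.59 without PTU mouse 10 and 0.093 with the presence of Y-linked counts as a term. The 6 astrocyte markers summed to 226, 241, 179 and 125 CPM in PTU mice 9 to 12 and to 259, 127, 366 and 195 CPM in PTU+TH mice 13 to 16, and were thus also highest in mouse 15 and lowest in mouse 12. Of these markers, Gfap was at 0 in all libraries, its body being wholly covered by other genes, and 0 of the 5 tested were called. The part of astrocyte RNA in the Grin2c level was not tested.

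The ratio of Grin2c to Grin2d counts was 0.044 ± 0.012 in PTU and 0.055 ± 0.026 in PTU+TH (SD, n = 4 each). The difference in log2 ratio was 0.25 (exact permutation test, two-sided, p = 0.629, adjusted 0.629). Without PTU+TH mouse 15 the sign changed, to -0.034.

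Grin3b, known from motor neurons, had 22, 15, 17 and 16 counts in PTU mice 9 to 12 and 19, 52, 22 and 13 counts in PTU+TH mice 13 to 16. Mouse 14 stood above the rest, at 1.79 CPM against 0.57 to 0.999 CPM in the other 7 libraries. The log2 fold change was 0.55 (SE 0.40, 95% confidence interval -0.31 to 1.41, edgeR adjusted p = 0.658), 0.16 without mouse 14 and 0.84 with the presence of Y-linked counts as a term. The log2 ratio of Grin3b to Grin3a counts was -10.11 ± 0.33 in PTU and -9.44 ± 0.75 in PTU+TH (SD, n = 4 each), a difference of 0.67 (exact permutation test, two-sided, p = 0.171, adjusted 0.257). This difference was 0.37 without mouse 14 and 0.98 without mouse 16. Restricting it to the 6 libraries that had Y-linked reads gave 1.12 (exact permutation p = 0.0667, the smallest that 15 arrangements allow, adjusted 0.1).

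A list of 61 genes covered proteins that scaffold, carry, modify, signal from or supply co-agonist to NMDA receptors. Of the 59 tested, 30 had a positive and 29 a negative log2 fold change, with a median of 0.003 against -0.007 over all genes tested. In edgeR, 1 was called higher and 0 lower, which is 1.69% against 2.12% of all genes. Before adjustment 9 of the 59 had an edgeR p under 0.05, 8 of them higher and 1 lower. Over all 17355 genes 12.8% did, 1144 higher and 1070 lower, and nothing is read from the split of 9 genes. The groups did not overlap for 6 higher and 2 lower genes of the 59, against 4.68% and 4.03% of all genes. Nothing is read from these counts either. Dao and Slc6a9 were not tested; 1.9% of the body of Slc6a9, a glycine transporter gene, is free of other genes.

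The called gene was Lin7b (chromosome 7, 45367891 to 45370583, minus strand), which encodes a small PDZ adaptor of the complex that carries GluN2B along microtubules. It was at 77.6, 81.9, 80.4 and 86.1 CPM in PTU mice 9 to 12 and at 124, 119, 102 and 99.4 CPM in PTU+TH mice 13 to 16. There was no overlap, with PTU+TH above PTU as for 4.68% of all genes. The log2 fold change was 0.45 (SE 0.092, edgeR adjusted p = 0.0239). The call was lost without PTU mouse 10 (adjusted p = 0.0672), PTU mouse 11 (0.0563), PTU+TH mouse 13 (0.078) or PTU+TH mouse 14 (0.0865), and with library totals alone as the scaling (0.0789). Of the 7 traffic genes, which include the motor gene Kif17 and the adaptor genes Cask and Apba1, the other 6 had log2 fold changes of -0.12 to 0.07.

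Ephb2, a receptor tyrosine kinase that binds NMDA receptors at the membrane, is the best expressed of the 3 uncalled genes with the largest differences, which are Slc7a10, Homer3 and Ephb2. It was at 41.8, 63.0, 66.4 and 66.3 CPM in PTU mice 9 to 12 and at 75.9, 83.8, 85.9 and 96.0 CPM in PTU+TH mice 13 to 16. The groups did not overlap, with PTU+TH above PTU as for 4.68% of all genes. The log2 fold change was 0.53 (SE 0.14, edgeR adjusted p = 0.0758). Without PTU mouse 9, the lowest library, the log2 fold change was 0.39 with an edgeR adjusted p of 0.0363. Leaving out any other library gave adjusted p-values of 0.083 to 0.228, and the term for Y-linked counts gave 0.404.

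Homer3, a scaffold adaptor gene, was at 3.72, 5.46, 3.81 and 4.29 CPM in PTU mice 9 to 12 and at 3.46, 2.72, 3.23 and 2.28 CPM in PTU+TH mice 13 to 16. Every PTU+TH library lay below the PTU libraries, as for 4.03% of all genes. The edgeR estimate was a log2 fold change of -0.56 with an SE of 0.22 and an adjusted p of 0.281. Slc7a10, an astrocyte transporter gene for D-serine and other small amino acids, ranged from 1.09 to 4.70 CPM in PTU and from 1.79 to 7.45 CPM in PTU+TH. Its edgeR log2 fold change was 0.61 with an SE of 0.52 and an adjusted p of 0.724, and leaving out 1 library gave 0.21 (without PTU+TH mouse 15) to 0.99 (without PTU mouse 10). It was highest in mouse 15 and lowest in mouse 12, as the summed astrocyte markers were.

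The remaining groups of the list had 0 called members. The 14 scaffold genes, among them the PSD-95 family (Dlg1 to Dlg4) and the Shank genes, had a median log2 fold change of 0.022. The median was -0.091 for 17 kinases, phosphatases and anchors, 0.058 for 7 downstream signalling genes and 0.017 for 7 tested co-agonist genes. It was -0.155 for 4 membrane partners and -0.049 for 3 chromatin regulators linked to the Grin2b to Grin2a switch (Rest, Rcor1 and Ezh2).

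**Figure D5:**
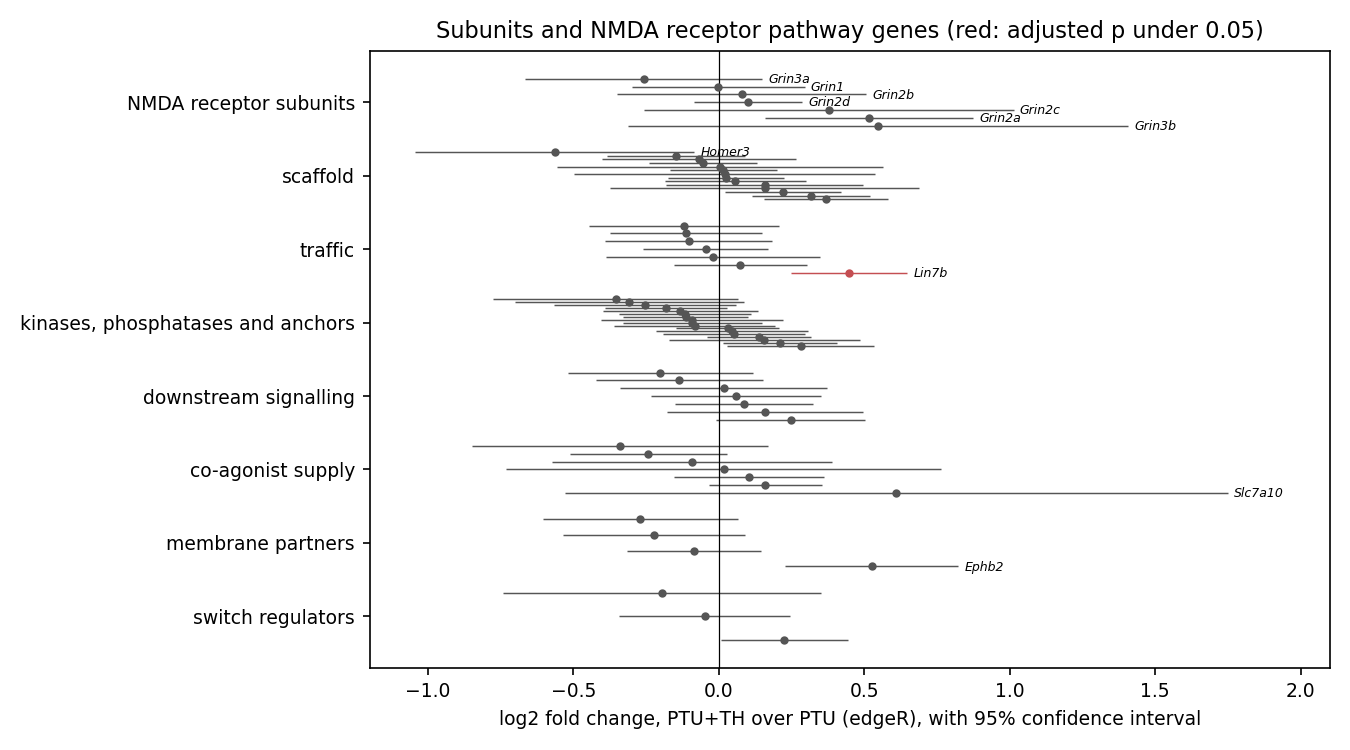
Log2 fold change of PTU+TH over PTU from edgeR with its 95% confidence interval for the 7 subunit genes and the 59 tested pathway genes, by role. Red marks an adjusted p under 0.05, reached by Lin7b (0.45), and most other intervals include 0.

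The genes with the most similar profile over the 8 libraries were found by Pearson's correlation of log2 CPM among 12760 candidates that averaged 1 CPM or more, as a description. For Grin2a they included Cables1 (0.993) and Tnk2 (0.99). For Grin2b they were Atxn1 (0.997), Erc2 (0.997), an active-zone gene, and Sh3rf3 (0.996), with gene bodies of 415.3, 856.1 and 325.6 kb. Grin3a was closest to Plppr1 (0.987), Nova2 (0.984) and Pak3 (0.983), Grin1 to Sfxn1 (0.988), Lamtor4 (0.985) and Zzef1 (0.979), and Grin2d to Tmem181a (0.971), Larp4 (0.953) and Fam83d (0.95). With 8 libraries and this many genes, high values are to be found for any gene, and library-wide properties such as the long-gene share are common to all points.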

How the data were processed

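RNA of sorted nuclei was read from SMART-Seq v4 cDNA and Nextera XT libraries, single-end, per the labels' protocols. The deposited files hold raw counts per gene symbol, with 1 file per library and 0 rows that name no gene. The submitters' processing notes name Bowtie2 2.5.3 and build GRCm38; the counting program, annotation, strand and treatment of introns are not given in the sources used here. All 55341 symbols were found in GENCODE M21, from which positions and lengths were taken. Libraries were sorted into groups by title.

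Genes were kept with filterByExpr, scaled with edgeR's TMM method and tested with edgeR 4.0.16 (R 4.3.3, robust quasi-likelihood, comparing the groups with no covariate). Calls needed a Benjamini-Hochberg adjusted two-sided p under 0.05 over 17355 genes. Log2 CPM used a prior count of 2. Ratios were compared with exact permutation tests and needed at least 10 counts per gene and library. Replicate libraries differed beyond sampling noise (chi-square per degree of freedom of 8.38 to 72.6 over 12 pairs). Alternatives used DESeq2 1.42.0, limma 3.58.1, sva 3.50.0, other scalings, filters, covariates and library subsets. The members and lists were chosen with earlier results of these data known. All 7 members are named, with each called pathway gene, the 3 uncalled pathway genes of largest change averaging 1 CPM or more, and the 3 most similar genes per well-measured member. A pore sequence and a similar gene are not reported here. On data simulated for PTU+TH against PTU over 17355 genes, the test called 25.5% of 200 altered genes when their log2 fold was 0.58, 64.5% when it was 1 and 90% when it was 2, with 4, 9 and 12 false calls and 0 calls in the wrong direction.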

Additional observations from a re-analysis of the deposited data

Results flagged for a closer look

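Among 28 sets of 4 replicate values, 1 held a library that stood apart, where chance gives about 5% of sets. It was the Ephb2 level of PTU mouse 9, 41.8 CPM, while mice 10 to 12 had 63.0 to 66.4 CPM, a gap of 0.86 of the range. Mouse 9 also had the lowest share of counts in long genes (37.4%), and the body of Ephb2 is 188450 bases long. With the length offset the log2 fold change of Ephb2 was 0.518, against 0.526 without it. The part of gene length in the value of mouse 9 was not tested.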

How the results depend on the processing

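No paired analysis was possible because no number is shared by a PTU and a PTU+TH mouse. The count of subunit genes called, 0 in the edgeR fit, was 1 (Grin2a) with DESeq2, with a surrogate variable, with excitatory markers as a term and with the length offset, and 0 in every fit that left out a library; in the other settings run it was also 0. The count of pathway genes called, 1, was 0 with library totals only, 2 without a filter on low counts (Lin7b and Ephb2), 3 with excitatory markers as a term (Shank2, Lin7b and Ephb2), 3 with the length offset (Homer2, Lin7b and Ephb2), 4 with DESeq2 (Shank2, Lin7b, Camk2b and Ephb2) and 4 with a surrogate variable (Shank2, Homer2, Lin7b and Ephb2), and from 0 to 2 when each library was left out. Calls over all genes, 368 in the edgeR fit, differed as well. They were 756 with DESeq2, 955 with a surrogate variable, 582 with excitatory markers and 670 with the length offset. Library totals only gave 256, no filter on low counts 435, and leaving out a library 182 to 499. The cause of these changes was not tested.

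The near-zero log2 fold change of Grin1 became 0.0081 with upper quartile scaling, 0.0011 without a filter, 0.0024 with a mean of at least 1 CPM, 0.105 with the presence of Y-linked counts as a term, 0.076 with a surrogate variable, 0.058 with excitatory markers and 0.106 in only the 6 libraries that had Y-linked reads, and ranged from -0.087 to 0.083 when each library was left out. Grin2b became -0.047 with Y-linked counts as a term and -0.046 in those 6 libraries, and ranged from -0.051 to 0.24 when each library was left out. The difference in the Grin2c to Grin2d log2 ratio was -0.061 in those 6 libraries and -0.034 to 0.499 when each library was left out. The Grin2a to Grin2b ratio kept its direction under every alternative run.

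Per kilobase of merged exons the levels of Grin1, Grin2a, Grin2b, Grin2c, Grin2d, Grin3a and Grin3b were 26.4, 31.01, 39.6, 0.73, 11.3, 60.8 and 0.27 CPM, by construction. Per kilobase of the body free of other genes, a scale added later, Grin1 was at 12.6, Grin2d at 2.01 and Grin3b at 0.210, beside Grin2c at 0.204. Grin3b was then the higher in 4 of 8 libraries, and its mean rested on PTU+TH mouse 14 (0.422, against 0.133 to 0.236 elsewhere). With 4 libraries a group, changes can be missed at every size simulated, including a log2 fold of 2, and Grin3b and Grin2c rest on few counts.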
